A study of Mus musculus with 3 samples.

Results

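The 10 genes described here encode molecular chaperones of the heat shock and endoplasmic reticulum (ER) families: Hspa1a, Hspa1b, Hspa8, Hsp90aa1, Hsph1 and Dnajb1 of the cytosol, Hspd1 and Hspe1 of mitochondria, and Hspa5 and Hsp90b1 of the ER. They were chosen by name, as every probe set to which the platform annotation gives a single one of these symbols, which yielded 25 probe sets for all 10 members among 18194 named genes. Their RNA was measured in mouse CD8 T cells, labelled as taken from the MLN, with 1 array for each of 3 groups. In the groups labelled VILLIN-HA/CL4-TCR and, with a plus sign, Villin-HA + CL4-TCR, the CL4-TCR transgene, a T cell receptor specific for influenza hemagglutinin (HA), was combined with Villin-HA, a transgene named for villin, whose promoter is active in gut epithelium. How they were combined in the group with the plus sign is not given by the labels. The group labelled CL4-TCR is named for the receptor transgene alone. The receptor transgene was common to all 3 groups, and the labels give neither age, sex nor number of mice. The series lists an ordinary, an in vivo activated and an in vivo generated regulatory CD8 population, but the labels do not say which Villin-HA array holds the activated and which the regulatory cells.

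Chaperones bind unfolded stretches of proteins and keep them from aggregating until they fold. The HSP70 proteins do so in cycles of ATP use that are started by J-domain partners such as Dnajb1 and closed by exchange factors such as Hsph1, and HSP90 proteins finish the folding of kinases and receptors. In the cytosol, heat shock factor 1 turns on the inducible members when unfolded protein builds up, whereas the ER members are induced by the unfolded protein response through ATF6 and XBP1. Activated T cells are known to enlarge their protein synthesis and folding machinery before they divide.

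The promoters of 8 members were available from RefSeq (GRCm38.p6) as windows of 300 bases, 250 before and 50 after an annotated transcription start. They are shown because heat shock and ER stress elements are known response elements of these genes, and because Hspd1 and Hspe1, and likewise Hspa5 and Hsp90b1, are pairs of partner proteins whose signals are set side by side below. In the first 3 sequences the capitals mark heat shock elements, searched as pairs (GAANNTTC or TTCNNGAA) or as 3 units (GAANNTTCNNGAA or TTCNNGAANNTTC, each the reverse complement of the other, and each containing pairs). In the last 2 sequences they mark CCAAT boxes, searched as CCAAT or its reverse complement ATTGG, and ER stress elements, searched as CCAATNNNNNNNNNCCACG or as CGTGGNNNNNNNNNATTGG on the other strand, which contain such a box. Each sequence runs 5′ to 3′ on the strand of its gene.
Hspa1b, minus strand, chr17:34959189-34959488: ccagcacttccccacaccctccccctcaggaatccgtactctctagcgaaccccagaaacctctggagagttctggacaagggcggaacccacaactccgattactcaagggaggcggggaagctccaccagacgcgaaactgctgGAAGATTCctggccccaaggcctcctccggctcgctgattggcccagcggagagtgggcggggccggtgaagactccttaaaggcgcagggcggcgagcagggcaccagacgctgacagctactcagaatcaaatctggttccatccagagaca
Hspe1, plus strand, chr1:55087898-55088197: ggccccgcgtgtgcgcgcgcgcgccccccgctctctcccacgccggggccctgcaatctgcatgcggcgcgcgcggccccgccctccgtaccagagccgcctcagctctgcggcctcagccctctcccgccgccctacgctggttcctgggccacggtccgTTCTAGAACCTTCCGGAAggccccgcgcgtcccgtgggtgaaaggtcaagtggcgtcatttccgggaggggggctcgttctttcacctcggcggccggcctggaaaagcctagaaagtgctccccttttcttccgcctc
Hsph1, minus strand, chr5:149636287-149636586: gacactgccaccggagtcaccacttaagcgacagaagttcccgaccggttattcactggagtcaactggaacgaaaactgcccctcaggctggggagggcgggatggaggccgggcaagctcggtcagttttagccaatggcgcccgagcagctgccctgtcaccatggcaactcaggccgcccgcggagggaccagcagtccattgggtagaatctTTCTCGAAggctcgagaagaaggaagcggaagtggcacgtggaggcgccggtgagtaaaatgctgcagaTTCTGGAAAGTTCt
Hspa5, plus strand, chr2:34771840-34772139: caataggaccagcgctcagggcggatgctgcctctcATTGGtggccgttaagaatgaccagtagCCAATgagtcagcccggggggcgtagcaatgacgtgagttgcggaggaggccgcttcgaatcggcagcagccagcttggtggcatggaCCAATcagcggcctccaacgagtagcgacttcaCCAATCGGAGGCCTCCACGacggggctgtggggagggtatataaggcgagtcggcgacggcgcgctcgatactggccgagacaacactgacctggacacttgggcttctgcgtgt
Hsp90b1, minus strand, chr10:86705395-86705694: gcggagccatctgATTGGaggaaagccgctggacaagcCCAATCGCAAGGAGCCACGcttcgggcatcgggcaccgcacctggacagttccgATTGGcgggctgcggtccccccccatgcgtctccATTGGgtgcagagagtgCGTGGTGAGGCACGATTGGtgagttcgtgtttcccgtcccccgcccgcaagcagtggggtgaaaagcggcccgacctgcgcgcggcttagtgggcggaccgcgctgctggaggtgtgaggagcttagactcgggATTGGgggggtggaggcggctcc

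A 3-unit heat shock element was present in the Hspe1 and Hsph1 windows and in 1 of the Hspd1 windows, against 0.603% of 32851 promoter windows. The Hsph1 match lay after the start, beginning at base 37 or 16 by window. Hspe1 held 2 such matches that overlap, the first beginning 89 bases before the start site. The Hspd1 window with the element shares 285 bases with the Hspe1 window on the opposite strand. The annotated starts behind this pair lie 216 bases apart, and the same matches lie upstream of both starts. The other annotated Hspd1 start lies 95 bases from that of Hspe1, with the matches downstream of it, and its window held no heat shock element. The Hspa1b window held a pair of units 104 bases before the start, which 15.1% of all windows also had. Hspa1a has the same pair, and the windows of these neighbouring genes were identical at 296 of 300 bases. Counted from 1 at the 5′ end, with the base of Hspa1b first, the differences were T44C, C47T, G249T and T276C. The ER stress element occurred once in the Hspa5 window and in 2 copies in the Hsp90b1 window, against 0.119% of all windows. CCAAT boxes, found in 37.4% of windows, numbered 4 in Hspa5 and 6 in Hsp90b1. The letters of a heat shock or ER stress element were not in the Dnajb1 windows.

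Signals were deposited as MAS5 values, a linear brightness per probe set after which the trimmed mean of each array stood at 150. Lower signals were raised to a floor of 31.7, the median of all values, and a gene was counted as higher or lower at a log2 difference of at least 1, a fold of 2. A gene with several probe sets is represented by the brightest, and a difference from a signal at the floor is written as at least that large. There was no replicate, so no p-value can be given and each difference is between single arrays. The disagreement between probe sets of 1 gene is the only error available, and its pooled SD on the log2 scale was 0.43 for VILLIN-HA/CL4-TCR cells minus CL4-TCR cells, 0.65 for Villin-HA + CL4-TCR cells minus CL4-TCR cells and 0.61 for the difference between the Villin-HA groups, taken as VILLIN-HA/CL4-TCR cells minus Villin-HA + CL4-TCR cells. It covers probes but neither mice nor labelling.

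The arrays differed in ways that touch all comparisons below. The ratio of 3′ to 5′ Gapdh control signal, which grows as RNA or its copies get shorter, was 46.2 in VILLIN-HA/CL4-TCR cells, 3.35 in Villin-HA + CL4-TCR cells and 18.4 in CL4-TCR cells. The same ratio for the b-Actin control was 2.46, 1.8 and 1.98 in that order, a far narrower range. Xist, the RNA of the inactive X chromosome, had signals of 2.5, 1339 and 5442.5 in the same order, and the Y-linked Eif2s3y had 1496, 747 and 13.4, so sex differs between the arrays too, in a way the labels do not give. All 10 CD8 T cell identity genes found were above the floor on each array, with summed signals of 26286.5, 27135 and 27386. Skeletal muscle genes, in contrast, summed to 273 in VILLIN-HA/CL4-TCR cells, 6777 in Villin-HA + CL4-TCR cells and 307 in CL4-TCR cells, with 3, 14 and 3 of 14 above the floor. Myh1, a myosin of fast muscle fibres, had 5.1, 2100.1 and 8.1 in that order. Neutrophil genes summed to 167, 1875 and 162 (1, 7 and 0 of 9 above the floor), stromal and endothelial genes to 156, 911 and 148 (1, 6 and 1 of 9) and myeloid genes to 1711, 1396 and 372 (9, 9 and 6 of 16), in the same order. No gene of these lists had a signal of exactly 0, and the part of other cells, RNA length or sex in the chaperone values was not tested. In such bulk RNA, fewer cells of a type and less RNA per cell cannot be told apart.

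**Figure D1:**
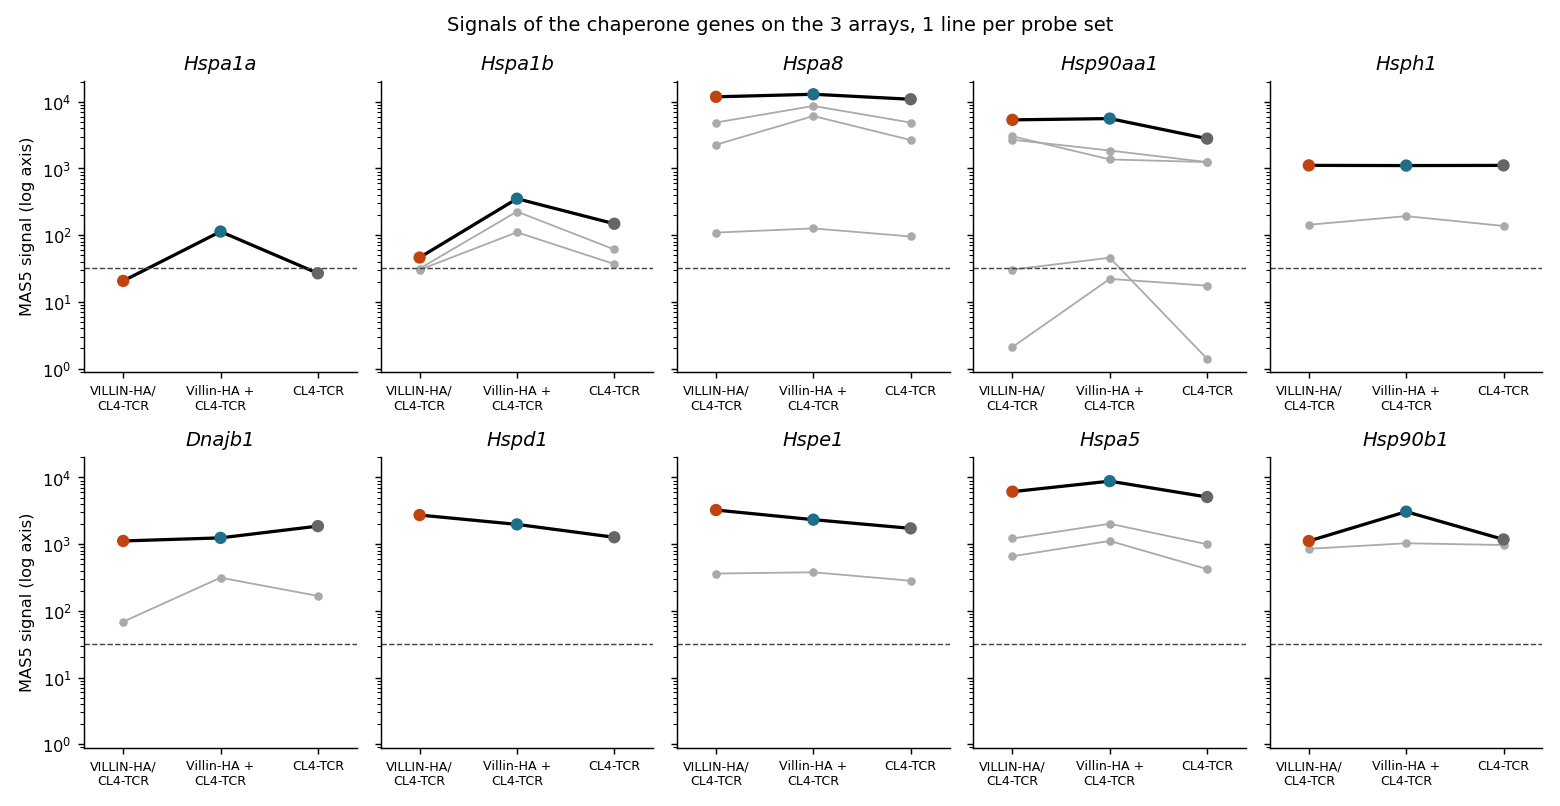
MAS5 signal (log axis) of the 10 chaperone genes on the VILLIN-HA/CL4-TCR, the Villin-HA + CL4-TCR and the CL4-TCR arrays, with 1 line per probe set, the brightest in black with coloured points, the others in grey, and the floor of 31.7 dashed. Hspa1a and Hspa1b peak in Villin-HA + CL4-TCR cells, Hspd1 and Hspe1 are highest in VILLIN-HA/CL4-TCR cells by their brightest probe sets, and Hsph1 is level.

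By the brightest probe sets, the stress-inducible HSP70 genes Hspa1a and Hspa1b had the widest differences between the Villin-HA groups among the members. Hspa1b had a signal of 46.2 in VILLIN-HA/CL4-TCR cells, 352 in Villin-HA + CL4-TCR cells and 148 in CL4-TCR cells. The extremes were thus both in Villin-HA groups, with CL4-TCR between them. Hspa1b was 3.21-fold lower in VILLIN-HA/CL4-TCR cells than in CL4-TCR cells (log2 difference -1.68, with 1.26% of genes below it) and 2.37-fold higher in Villin-HA + CL4-TCR cells than in CL4-TCR cells (1.25). Between the Villin-HA groups the log2 difference was -2.93, or 7.62-fold lower in VILLIN-HA/CL4-TCR cells, and 0.571% of the measured genes had a smaller value.

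Both other Hspa1b probe sets had the same order of arrays. Probe set 1427127_x_at had signals of 31.5 in VILLIN-HA/CL4-TCR cells, 225.7 in Villin-HA + CL4-TCR cells and 61.1 in CL4-TCR cells, and 1427126_at had 30.2, 110.5 and 36.9. Their VILLIN-HA/CL4-TCR signals lay at or below the floor, so the log2 differences from CL4-TCR of -0.95 and -0.22 are bounds that did not reach 2-fold, while those from the Villin-HA + CL4-TCR array, -2.83 and -1.80, did. By the median over its probe sets the difference from CL4-TCR cells was -0.95 in VILLIN-HA/CL4-TCR cells, so that count rests on the brightest probe set. The only probe set of Hspa1a had signals of 20.6, 113 and 26.8 on the same arrays, above the floor in Villin-HA + CL4-TCR cells alone. Hspa1a was thus at least 3.57-fold higher there than on either other array, a bound that fell to a log2 difference of 0.72 with the floor at the 65th percentile, and it was not measured between VILLIN-HA/CL4-TCR and CL4-TCR. The proteins of Hspa1a and Hspa1b are known to be almost the same and their transcripts very alike, so which of the pair gave a signal is uncertain, and the 4 probe sets are not independent readings of 2 genes.

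Hspa8, the constitutive HSP70 of the cytosol, did not share that pattern by its brightest probe set. Signals there were 11862 in VILLIN-HA/CL4-TCR cells, 12955.5 in Villin-HA + CL4-TCR cells and 10905 in CL4-TCR cells, which is 0.12 and 0.25 above CL4-TCR on the log2 scale. Of the other 3 probe sets, 1420622_a_at had 2270.3, 6116 and 2666 in the same order, which is a log2 difference of 1.20 for Villin-HA + CL4-TCR cells minus CL4-TCR cells and -1.43 between the Villin-HA groups. Its partner 1420623_x_at had 4885, 8655 and 4874, with differences of 0.83 and -0.83. All 4 Hspa8 probe sets were highest in Villin-HA + CL4-TCR cells, but the difference ran from 0.25 to 1.20 against CL4-TCR, and the brightest gave the smallest difference.

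Hsp90aa1, the inducible form of cytosolic HSP90, was higher in both Villin-HA groups. By its brightest probe set, signals were 5353.5 in VILLIN-HA/CL4-TCR cells, 5595 in Villin-HA + CL4-TCR cells and 2802 in CL4-TCR cells. Both Villin-HA groups were nearly alike there, with log2 differences from CL4-TCR of 0.93 and 0.998, so that neither was counted. Probe set 1437497_a_at had 2698, 1857 and 1246 in the same order, and 1426645_at had 3044, 1365 and 1247. Those sets put VILLIN-HA/CL4-TCR past 2-fold over CL4-TCR (1.11 and 1.29) and Villin-HA + CL4-TCR short of it (0.58 and 0.13). The difference between the Villin-HA groups ran from -0.06 to 1.16 over the 3 probe sets above the floor in both. The remaining measured one lay below the floor in VILLIN-HA/CL4-TCR cells (30.5, against 45.8 in Villin-HA + CL4-TCR cells), so their order is not settled for Hsp90aa1.

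The co-chaperones of the cytosol had no member counted by the brightest probe set. Hsph1, which reloads HSP70 with nucleotide, had signals of 1112 in VILLIN-HA/CL4-TCR cells, 1105 in Villin-HA + CL4-TCR cells and 1112 in CL4-TCR cells. These are level to within 0.01 on the log2 scale. Its weaker probe set had 143, 193 and 137 in that order. Dnajb1, the J-domain partner of inducible HSP70, had 1117, 1242.5 and 1864, being lower in both Villin-HA groups than in CL4-TCR cells, by log2 differences of -0.74 and -0.59 that are short of 2-fold. Its other probe set went the opposite way on one array, with 68.7 in VILLIN-HA/CL4-TCR cells, 314 in Villin-HA + CL4-TCR cells and 167.5 in CL4-TCR cells, or -1.29 and 0.91. Between the Villin-HA groups that probe set gave -2.19, against -0.15 by the brightest, and it ranked the arrays as Hspa1b did. No direction can be given for Dnajb1 in Villin-HA + CL4-TCR cells.

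The mitochondrial chaperonin pair, which forms the folding chamber of the matrix (Hspd1, HSP60) and its lid (Hspe1, HSP10), was higher in both Villin-HA groups and highest in VILLIN-HA/CL4-TCR cells by the brightest probe sets. Hspd1 had signals of 2731 in VILLIN-HA/CL4-TCR cells, 1978.5 in Villin-HA + CL4-TCR cells and 1269 in CL4-TCR cells. Hspe1 had 3246, 2329 and 1726 in the same order by 1450668_s_at. By these probe sets the order was the same for both genes. Their promoter windows overlap as described above, and whether this bears on the order was not tested. Against CL4-TCR, Hspd1 was 2.15-fold higher in VILLIN-HA/CL4-TCR cells (log2 1.11) and 1.56-fold in Villin-HA + CL4-TCR cells (0.64), and Hspe1 was 1.88-fold (0.91) and 1.35-fold (0.43) higher. Of these, only Hspd1 in VILLIN-HA/CL4-TCR cells was counted, and it fell short of 2-fold, at 0.88, with arrays scaled to housekeeping genes. The other Hspe1 probe set had signals of 363, 379 and 283, with log2 differences of 0.36 and 0.42. The pair differed between the Villin-HA groups by 0.47 (Hspd1) and 0.48 (Hspe1), less than the probe set SD.

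Both ER members had their highest signal in Villin-HA + CL4-TCR cells. Hspa5, the ER HSP70 also called BiP, which holds the stress sensors inactive, had signals of 6125 in VILLIN-HA/CL4-TCR cells, 8800.5 in Villin-HA + CL4-TCR cells and 5092 in CL4-TCR cells. Its other probe sets had 1216, 2023 and 997 (1427464_s_at) and 659, 1117 and 423 (1447824_x_at) in the same order. All 3 thus ranked the arrays alike, with log2 differences from CL4-TCR of 0.79 to 1.40 in Villin-HA + CL4-TCR cells and of 0.27 to 0.64 in VILLIN-HA/CL4-TCR cells, and the brightest probe set was short of 2-fold in each. Hsp90b1, the ER form of HSP90 also called GRP94, which folds integrins and Toll-like receptors, had 1114 in VILLIN-HA/CL4-TCR cells, 3069.7 in Villin-HA + CL4-TCR cells and 1176.5 in CL4-TCR cells. It was 2.61-fold higher in Villin-HA + CL4-TCR cells than in CL4-TCR cells and 2.76-fold lower in VILLIN-HA/CL4-TCR cells than in Villin-HA + CL4-TCR cells. The second Hsp90b1 probe set had 851, 1031 and 971, a log2 difference of 0.09 for Villin-HA + CL4-TCR cells minus CL4-TCR cells against 1.38 by the brighter one. With the median over both probe sets the differences were 0.74 from CL4-TCR cells and -0.87 between the Villin-HA groups, both short of 2-fold.

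**Figure D2:**
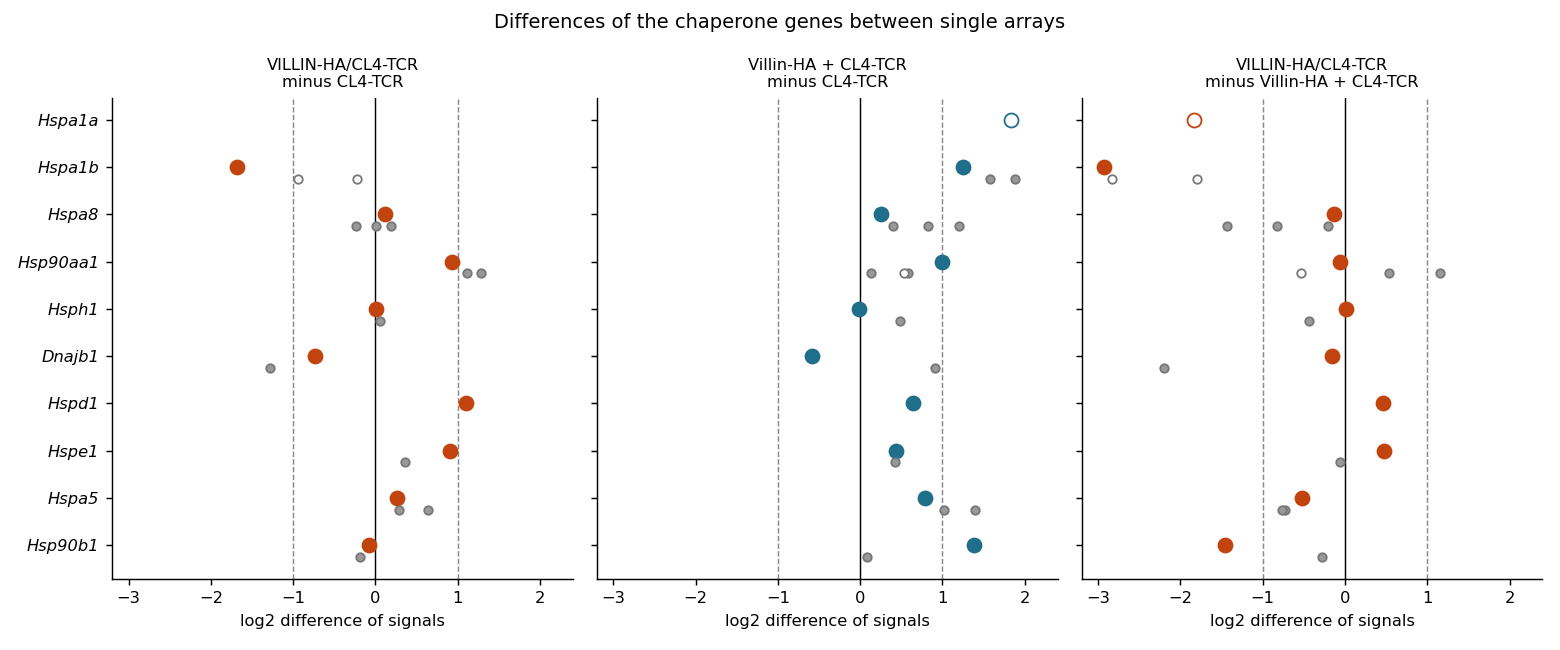
Log2 differences of signal for each chaperone gene in the 3 comparisons, with large points for the brightest probe set, small grey points for the others, open points for bounds where a signal lay at the floor, and dashed lines at 2-fold. Hspa1b lies at -1.68 in the left panel and at 1.25 in the middle one, and the Hsp90b1 and Dnajb1 probe sets lie furthest apart in the middle panel.

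Counted together, 1 member was higher and 1 lower in VILLIN-HA/CL4-TCR cells. Of 9 measured members, 1 was higher than in CL4-TCR cells (Hspd1), or 11.1% against 7.43% of 11260 genes, and 1 was lower (Hspa1b), or 11.1% against 6.63%. The median log2 difference of the members was 0.12, which turned to -0.10 with arrays scaled to housekeeping genes, and that of all genes was -0.04. Of 10 members, 3 were higher in Villin-HA + CL4-TCR cells than in CL4-TCR cells (Hspa1a, Hspa1b and Hsp90b1), or 30.0% against 11.9% of 12196 genes, and 0 were lower, against 9.53%. The median of the members was 0.72 there and that of all genes 0.06. It was above zero under all 3 other scalings, at 0.51 to 0.59. Of the 3 higher members, Hspa1a and Hspa1b are not independent readings, as said above. Hspa1a was short of 2-fold with the floor at the 65th percentile (0.72), and Hsp90b1 with the median over both probe sets (0.74).

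By single probe sets, 22 of 24 measured had a higher signal in Villin-HA + CL4-TCR cells than in CL4-TCR cells (91.7%, against 52.0% of all named probe sets), and 8 of them were past 2-fold. In VILLIN-HA/CL4-TCR cells it was 14 of 22 (63.6%, against 45.4%), with 3 past 2-fold up and 2 down. Probe sets of a gene share its RNA, so these are not independent. The shares of higher signals, here and below, were taken under the deposited scaling only and not against probe sets of like brightness. The 11 housekeeping genes had a median of 0.30 for Villin-HA + CL4-TCR cells minus CL4-TCR cells. It was 0.04 for VILLIN-HA/CL4-TCR cells minus CL4-TCR cells and -0.17 between the Villin-HA groups. The share of all named probe sets past 2-fold was not computed, so the 2-fold counts of probe sets here and below have no background beside them. Both comparisons share the CL4-TCR array, and a peculiarity of that array would enter both. Between the Villin-HA groups, 0 of 10 members were higher in VILLIN-HA/CL4-TCR cells, against 6.13% of 12081 genes, and 3 were lower (Hspa1a, Hspa1b and Hsp90b1), or 30.0% against 8.95%. The same limits hold for these 3, with Hspa1a at -0.72 with the higher floor and Hsp90b1 at -0.87 with the median over probe sets. The median of the members was -0.14, which turned to 0.12 with arrays scaled to the same median and was -0.63 with the median over probe sets, and that of all genes was -0.06. Of 24 probe sets, 5 had a higher signal in VILLIN-HA/CL4-TCR cells (20.8%, against 46.1% of all named probe sets), with 1 past 2-fold up and 7 down.

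**Figure D3:**
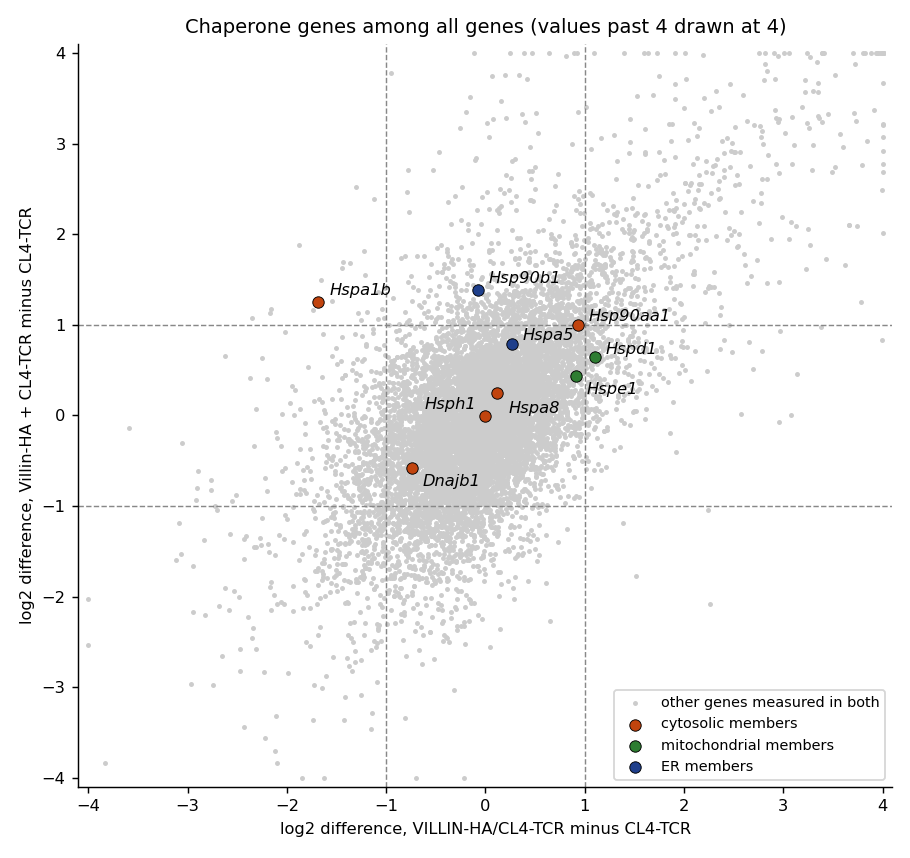
Log2 difference from the CL4-TCR array in VILLIN-HA/CL4-TCR cells (x axis) and in Villin-HA + CL4-TCR cells (y axis) for all genes measured in both (grey) and for 9 chaperone genes coloured by compartment, with dashed lines at 2-fold. Both axes share the CL4-TCR array, so their slope is not a result, and Hspa1b lies alone among the members past 2-fold in opposite directions.

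Few genes lay near Hspa1b, the cytosolic member with the widest range, by its brightest probe set. Likeness was taken as the distance between the log2 differences of both Villin-HA arrays from CL4-TCR, over 3 arrays and 9013 other genes above the floor on each. The nearest were Nme1 (distance 0.10), Ascc1 (0.14) and Akt1 (0.25), and these 3 were all the genes within 0.25. Akt1 had signals of 69.8 in VILLIN-HA/CL4-TCR cells, 621 in Villin-HA + CL4-TCR cells and 221 in CL4-TCR cells. Of its other probe sets, 1 was above the floor in both Villin-HA groups and differed between them by -0.44 on the log2 scale, against -3.15 for the brightest. Nme1 was placed there by an _x_at probe set, some of whose probes other sequences share (663, 4945 and 2207), while its other probe set had 1373, 1365 and 742. The pattern of Hspd1 was common, with 119 genes within 0.25 and Rpa3, Dtx3 and Eloc the nearest. For Hsp90b1, 34 genes were within that distance, led by Mybl2, Irf2bp2 and Dstn. The other 3 Irf2bp2 probe sets ran from -0.82 to 0.22 for Villin-HA + CL4-TCR cells minus CL4-TCR cells, against 1.31 for the one used. With only 3 arrays, likeness rests on a pair of differences per gene. Fewer genes lie far from zero than near it, so the numbers within 0.25 also follow from the size of a member's differences.

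Other cytosolic heat shock genes were split in VILLIN-HA/CL4-TCR cells and had a median above that of all genes in Villin-HA + CL4-TCR cells. Of 33 measured, 4 were higher in VILLIN-HA/CL4-TCR cells and 5 lower than in CL4-TCR cells, with a median of -0.25. That is 12.1% and 15.2%, against 7.43% and 6.63% of all genes. Without _x_at, _s_at and _a_at probe sets, 2 of 29 were lower, or 6.9% against 7.09% of all genes. Of the higher, Hspa4l, an HSP110 relative of Hsph1, had signals of 439 in VILLIN-HA/CL4-TCR cells, 232 in Villin-HA + CL4-TCR cells and 109 in CL4-TCR cells, and Hspa13 and St13, an HSP70 cofactor, were 2.79-fold and 2.24-fold higher. Whether each product of this list, that of Hspa13 included, is in fact cytosolic was not checked. Among the lower, Sqstm1, the p62 receptor of autophagy, had 99.8 in VILLIN-HA/CL4-TCR cells, 1009 in Villin-HA + CL4-TCR cells and 446 in CL4-TCR cells. Dnaja4 was 3.36-fold and Cdc37, the HSP90 cofactor for kinases, 2.83-fold lower in VILLIN-HA/CL4-TCR cells than in CL4-TCR cells.

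As for Villin-HA + CL4-TCR cells, 8 of 34 were higher than in CL4-TCR cells and 1 lower, with a median of 0.41 that ran from 0.21 to 0.47 over the other scalings. That is 23.5% and 2.94%, against 11.9% and 9.53% of all genes. Stip1, which passes clients between HSP70 and HSP90, had 90.6 in VILLIN-HA/CL4-TCR cells, 452.5 in Villin-HA + CL4-TCR cells and 123 in CL4-TCR cells. The small heat shock gene Cryab, which is abundant in muscle, had 18.8, 210.5 and 39.2 in that order, on the array where the muscle genes also stood high, and another of its probe sets lay near the floor, with 17.0, 26.4 and 33.1. Hspa2 was at least 3.62-fold higher in Villin-HA + CL4-TCR cells than in CL4-TCR cells, and the lower gene was Stub1, the ubiquitin ligase of HSP70 (2.10-fold). Of the Villin-HA groups compared directly, 0 of 34 were higher and 11 lower in VILLIN-HA/CL4-TCR cells, with Sqstm1 10.1-fold, Cryab at least 6.64-fold and Stip1 4.99-fold lower, and a median of -0.39. The 11 lower are 32.4% of the list, against 8.95% of all genes, while 6.13% of all genes were higher. The count of lower genes in the list was 6 with log2(signal + 32), 7 with the floor at the 65th percentile, and 7 with 1 higher when arrays were scaled to the same median. Without _x_at, _s_at and _a_at probe sets 7 of 29 were lower and 2 higher, and the log2 difference of Sqstm1 was -0.29 instead of -3.34. Of the 5 genes of the heat shock factor list, 4 were found among the named genes, and Hsf1 was not, so nothing is said of it. Hsf2 lay below the floor on all 3 arrays. The 2 measured genes were Hsf4, near the floor at 35.6, 42.2 and 28.7 in the same order of arrays, and Hsbp1. Neither was counted in any comparison (medians 0.06, 0.15 and -0.08).

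The cytosolic chaperonin TRiC, which folds actin and tubulin, and its partner prefoldin had medians above zero in both Villin-HA groups, as they did under every other scaling run. Their 14 genes had a median log2 difference from CL4-TCR of 0.59 in VILLIN-HA/CL4-TCR cells and 0.39 in Villin-HA + CL4-TCR cells, with 1 counted in each, Pfdn4 (2.31-fold higher) and Tcp1 (2.29-fold higher). That is 7.14% of the list, against 7.43% and 11.9% of all genes, and the log2 differences were 0.986 for Pfdn4 under housekeeping scaling and 0.988 for Tcp1 under median scaling, just short of 2-fold. Their median between the Villin-HA groups was 0.16 and none was counted. Cct2, a TRiC subunit, had 6266 in VILLIN-HA/CL4-TCR cells, 5609 in Villin-HA + CL4-TCR cells and 4228 in CL4-TCR cells. Other mitochondrial chaperones and proteases had medians nearer zero than Hspd1 and Hspe1, which turned negative under housekeeping scaling in both Villin-HA groups and under median scaling in Villin-HA + CL4-TCR cells. None of 15 was counted between VILLIN-HA/CL4-TCR and CL4-TCR (median 0.20), and 1 was higher in Villin-HA + CL4-TCR cells than in CL4-TCR cells, Dnajc15, a J-protein of the inner membrane, with signals of 560 in VILLIN-HA/CL4-TCR cells, 2003 in Villin-HA + CL4-TCR cells and 345 in CL4-TCR cells (median 0.07). It was also the gene counted between the Villin-HA groups, 3.58-fold lower in VILLIN-HA/CL4-TCR cells (median -0.01). That is 6.67% of the list each time, against 11.9% of all genes higher in the former comparison and 8.95% lower in the latter.

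Other ER folding genes, like Hspa5 and Hsp90b1, had their higher median in Villin-HA + CL4-TCR cells. Of 25 measured, 6 (24.0%) were higher in Villin-HA + CL4-TCR cells than in CL4-TCR cells and 2 (8.0%) lower, against 11.9% and 9.53% of all genes. The median was 0.63 (0.42 to 0.57 over the other scalings). In VILLIN-HA/CL4-TCR cells 0 of 26 were higher and 1 (3.85%) lower, against 7.43% and 6.63% of all genes. The median there was 0.22, and -0.004 under housekeeping scaling. Fkbp2, an ER prolyl isomerase, had 105 in VILLIN-HA/CL4-TCR cells, 482 in Villin-HA + CL4-TCR cells and 138 in CL4-TCR cells. Pdia6 and Txndc5, which are protein disulfide isomerases, were 3.23-fold and 2.73-fold higher in Villin-HA + CL4-TCR cells than in CL4-TCR cells. Dnajc3, an ER J-protein, was 2.69-fold lower and Uggt1, the glucosyltransferase that recalls misfolded glycoproteins, 2.15-fold lower there, and Txndc11 was 2.47-fold lower in VILLIN-HA/CL4-TCR cells than in CL4-TCR cells. Calr, the lectin chaperone calreticulin, had 3872 in VILLIN-HA/CL4-TCR cells, 4010.1 in Villin-HA + CL4-TCR cells and 3409 in CL4-TCR cells. In the comparison of the Villin-HA groups, 0 of 26 were higher and 3 lower in VILLIN-HA/CL4-TCR cells, namely Fkbp2 (4.58-fold), Dnajb9 (2.64-fold), a J-protein partner of BiP, and Pdia6 (2.18-fold), with a median of -0.22 that turned to 0.04 with arrays scaled to the same median. The 3 lower are 11.5% of the list, against 8.95% of all genes, while 6.13% of all genes were higher.

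Genes of the unfolded protein response and of ER-associated degradation had no common direction. Of 29 measured, 3 were higher in VILLIN-HA/CL4-TCR cells than in CL4-TCR cells and 3 lower (median -0.15), which became 0 higher and 2 lower with the floor at the 65th percentile, and in Villin-HA + CL4-TCR cells 6 of 28 were higher and 1 lower (median -0.08). Each count of 3 is 10.3%, against 7.43% higher and 6.63% lower of all genes. The 6 and 1 are 21.4% and 3.57%, against 11.9% and 9.53%. With log2(signal + 32) the higher genes in Villin-HA + CL4-TCR cells were 3, or 10.7% against 10.5% of all genes. Asns, the asparagine synthetase gene induced by ATF4, had 116 in VILLIN-HA/CL4-TCR cells, 295.5 in Villin-HA + CL4-TCR cells and 29.3 in CL4-TCR cells, so that it was at least 3.67-fold and at least 9.32-fold higher in the Villin-HA groups in that order than in CL4-TCR cells. Derl3, a component of ER-associated degradation, was 2.21-fold and 3.66-fold higher in that order. Ppp1r15a, which restarts translation after stress, had 101 in VILLIN-HA/CL4-TCR cells, 1049.8 in Villin-HA + CL4-TCR cells and 139 in CL4-TCR cells. Wfs1, near the floor in CL4-TCR cells at 32.9, was 2.12-fold higher and Atf6b, Crebrf and Edem1 were 2.68-fold, 2.28-fold and 2.22-fold lower in VILLIN-HA/CL4-TCR cells than in CL4-TCR cells, and Crebrf was 4.05-fold lower in Villin-HA + CL4-TCR cells than in CL4-TCR cells. With the higher floor, the log2 differences of Asns, Derl3, Wfs1 and Atf6b in VILLIN-HA/CL4-TCR cells were 0.76, 0.69, 0.02 and -0.71, all short of 2-fold, and with the median over probe sets those of Crebrf and Edem1 were -0.49 and -0.74.

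Xbp1 and Atf4, transcription factors of that response, were short of 2-fold. Xbp1 had 1695 in VILLIN-HA/CL4-TCR cells, 2036 in Villin-HA + CL4-TCR cells and 1521 in CL4-TCR cells, and these values do not show whether its RNA was spliced. Atf4 had 1109.8, 1087 and 1007 in the same order by its brightest probe set. For the Villin-HA groups against each other, 0 of 30 genes of this list were higher and 4 lower in VILLIN-HA/CL4-TCR cells, led by Ppp1r15a (10.4-fold), Creb3l2 (at least 3.09-fold) and Asns (2.54-fold), with a median of -0.06. The 4 lower are 13.3% of the list, against 8.95% of all genes, while 6.13% of all genes were higher. Scaled to the same median, 3 genes of the list were higher and 3 lower and its median was 0.19. Plasma cells hold much ER chaperone RNA, and 5 of 8 of their marker genes were above the floor on each array, with summed signals of 2985.5 in VILLIN-HA/CL4-TCR cells, 2919 in Villin-HA + CL4-TCR cells and 1774 in CL4-TCR cells. That list holds Irf4, Prdm1 and Xbp1, which T cells also express. Of its more specific genes, Jchain had 178, 74.9 and 61.0 and Mzb1 had 69.3, 28.9 and 36.5 in the same order of arrays. Sdc1 and Tnfrsf17 lay below the floor on all 3 arrays. Derl3, which is in that list and in that of the unfolded protein response, had its highest signal in Villin-HA + CL4-TCR cells, as did Hspa5 and Hsp90b1. It was 2.21-fold higher in VILLIN-HA/CL4-TCR cells and 3.66-fold higher in Villin-HA + CL4-TCR cells than in CL4-TCR cells. Prdm1 and Xbp1 were also highest in Villin-HA + CL4-TCR cells, whereas Jchain, Mzb1 and Irf4 were highest in VILLIN-HA/CL4-TCR cells. The part of plasma cells in the ER values was not tested.

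**Figure D4:**
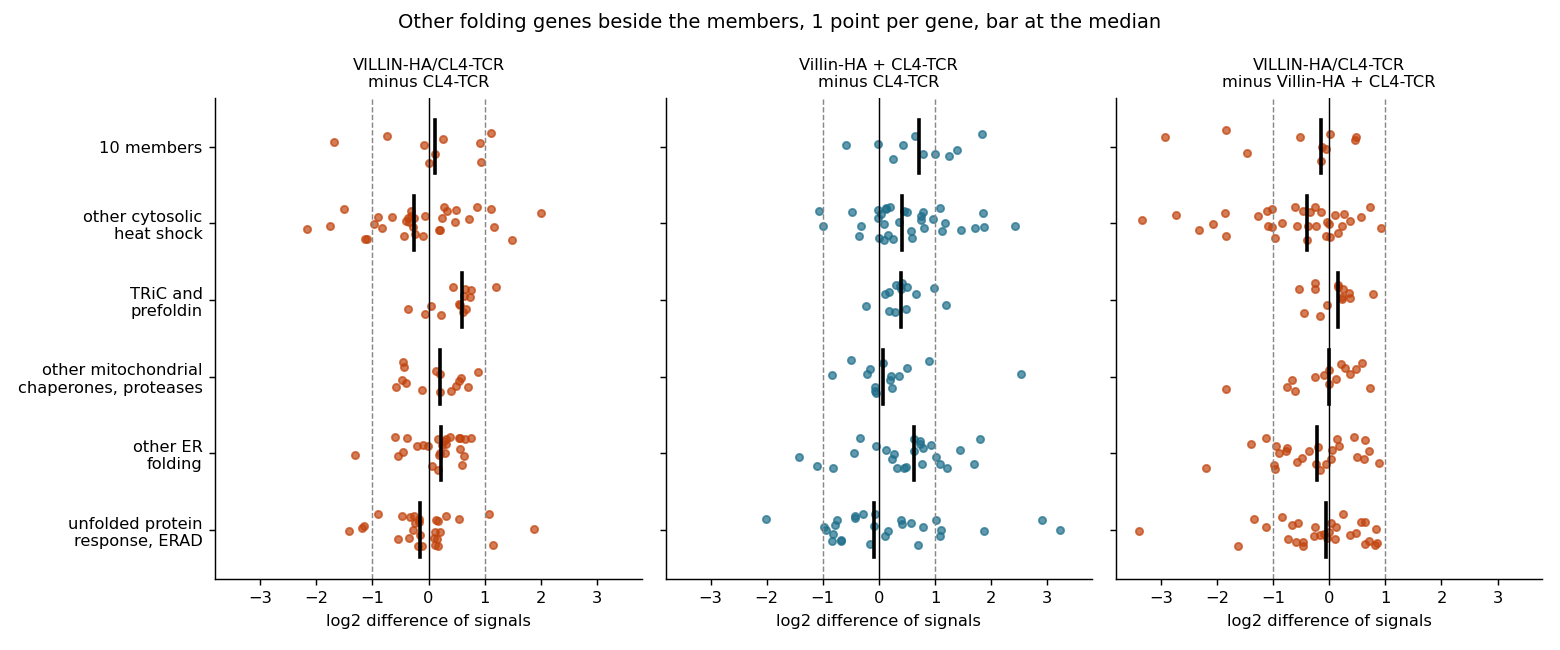
Log2 differences of the 10 members and of 5 lists of other folding genes in the 3 comparisons, 1 point per measured gene, with a bar at the median and dashed lines at 2-fold. The medians of the members (0.72) and of other ER folding genes (0.63) lie furthest right in the middle panel, for Villin-HA + CL4-TCR minus CL4-TCR.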

How the data were processed

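The authors deposited MAS5 intensity values for 45101 probe sets on each of 3 one-colour arrays. Per the labels' protocols, 6 µg of total RNA was copied into biotinylated cRNA. MAS5 is named in the submitters' processing notes without a version. Each array's 2% trimmed mean is 150, which removes any change common to most genes. Detection calls were not used here. Symbols came from the platform annotation, updated through Entrez identifiers to GRCm38.p6 RefSeq: 34958 probe sets had 1 symbol (34754 matched), 932 several and 9211 none.

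Log2 differences were computed in Python 3.11.15 with pandas 2.3.3 after raising signals to the floor of 31.7, and the code was tested on simulated data. Comparisons, 9 alternatives and the gene lists (9 of pathways, 10 of cell type markers) are given in the report and below. The members and lists were chosen with earlier results of these data known. All members were named, the 3 genes nearest in pattern to 1 member per compartment, and of each pathway list up to 3 higher and 3 lower genes per comparison by size. Hsf2, Hsf4, Hsbp1, Cct2, Calr, Xbp1, Atf4, Jchain, Mzb1, Sdc1, Tnfrsf17, Myh1, Xist and Eif2s3y were added after their values were seen. The number of arrays limits the precision.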

Additional observations from a re-analysis of the deposited data

Results flagged for a closer look

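By the brightest probe sets, Hspa1b was the 1 member past 2-fold in opposite directions in the Villin-HA groups, 3.21-fold lower in VILLIN-HA/CL4-TCR cells and 2.37-fold higher in Villin-HA + CL4-TCR cells than in CL4-TCR cells, whose array both share. The lower value rests on that probe set, with a signal of 46.2 near the floor of 31.7. Its other probe sets gave bounds of -0.95 and -0.22 there, short of 2-fold. The log2 difference between the Villin-HA groups was -2.93, and with 1 array for each it was not tested.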

How the results depend on the processing

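No paired analysis was possible because each group holds 1 array. With no replicates, a median or gene was taken as moved when it shifted by more than the pooled probe set SD, and a count when it changed by over 1.5 times. For VILLIN-HA/CL4-TCR cells minus CL4-TCR cells, the report counted 1 member higher and 1 lower. The share of all genes is given in brackets. Members higher numbered 0 with arrays scaled to housekeeping genes (5.22%), 2 with the median over probe sets (6.22%), 2 without _x_at, _s_at and _a_at probe sets (7.04%) and 3 at 1.5-fold (16.4%). Members lower numbered 0 without such probe sets (7.09%) and 2 at 1.5-fold (17.3%). The median of the members was -0.10 under housekeeping scaling. For Villin-HA + CL4-TCR cells minus CL4-TCR cells, 6 members were higher and 1 lower at 1.5-fold, where 23.6% of all genes were higher and 20.5% lower. Between the Villin-HA groups, 1 member was higher in VILLIN-HA/CL4-TCR cells without _x_at, _s_at and _a_at probe sets, where 6.1% of all genes were higher. The median of the members was 0.12 with arrays scaled to the same median. Without those probe sets 6 or 7 members were measured, and Hspa4l and Cryab turned to -0.711 and -0.062 for Villin-HA + CL4-TCR cells minus CL4-TCR cells, that of Cryab being a bound from a probe set below the floor in Villin-HA + CL4-TCR cells. The other 67 of 78 alternative values of the counts and medians stayed within these limits, and causes were not tested. A count can stay while its members change, as with the median over probe sets. Dnajb1 (-1.01) was then the lower member in VILLIN-HA/CL4-TCR cells minus CL4-TCR cells, in place of Hspa1b (-0.95). Hsp90b1 gave way to Hspa5 (1.02) in Villin-HA + CL4-TCR cells minus CL4-TCR cells, and to Dnajb1 (-1.17) between the Villin-HA groups. Housekeeping scaling put the median of all genes at -0.23 for VILLIN-HA/CL4-TCR cells minus CL4-TCR cells and the higher share of all calls at 32.7% instead of 52.9%. Scaling to the same median put them at -0.14 and 38.2% instead of 55.6% for Villin-HA + CL4-TCR cells minus CL4-TCR cells (housekeeping scaling, -0.12 and 40.2%), and at 0.19 and 67.3% instead of 40.7% between the Villin-HA groups. Counts over all genes changed by over 1.5 times as follows. For VILLIN-HA/CL4-TCR cells minus CL4-TCR cells, 746 lower genes became 1226 under housekeeping scaling and 1172 with the floor at the 35th percentile, and 1.5-fold gave 1848 higher and 1946 lower. For Villin-HA + CL4-TCR cells minus CL4-TCR cells, 1454 higher genes became 2320 with that floor and 943 with the floor at the 65th percentile, and 1.5-fold gave 2877 higher and 2497 lower. Between the Villin-HA groups, 741 higher genes became 1370 under median scaling and 488 with the median over probe sets, 1081 lower genes became 1968 with the lower floor, 665 under median scaling and 634 with the higher floor, and 1.5-fold gave 1976 higher and 2513 lower. In Villin-HA + CL4-TCR cells minus CL4-TCR cells, median and housekeeping scaling each gave 3 higher and 5 lower unfolded protein response genes, 5 higher and 2 lower other cytosolic genes and 4 higher other ER genes. In VILLIN-HA/CL4-TCR cells minus CL4-TCR cells, housekeeping scaling gave 2 higher and 8 lower other cytosolic genes and 1 higher and 4 lower unfolded protein response genes, and log2(signal + 32) gave 1 and 2 of the last. Lower other cytosolic genes in that comparison numbered 3 with log2(signal + 32) and 2 without _x_at, _s_at and _a_at probe sets. Hspa1b stayed past 2-fold in all 8 alternatives for Villin-HA + CL4-TCR cells minus CL4-TCR cells (1.04 to 1.58) and between the Villin-HA groups (-2.97 to -1.80), and in 6 of 8 for VILLIN-HA/CL4-TCR cells minus CL4-TCR cells (-1.91 to -0.22). Of 82 calls of members and leading list genes, 31 fell short of 2-fold in at least 1 alternative, among them Pdia6 (0.89) and Dnajc3 (-0.83) with the median over probe sets for Villin-HA + CL4-TCR cells minus CL4-TCR cells, Hspa2 (0.74) with the higher floor for the same, Creb3l2 (-0.52) with the higher floor between the Villin-HA groups, and St13 (0.94) under housekeeping scaling and Hspa4l (0.89) without _x_at, _s_at and _a_at probe sets for VILLIN-HA/CL4-TCR cells minus CL4-TCR cells. Signals near the floor, as those of Hspa1a, limit what can be read.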

Other observations

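The remaining lists were read as context for the chaperone genes. Of all genes, 7.43% were higher and 6.63% lower in VILLIN-HA/CL4-TCR cells than in CL4-TCR cells. These shares were 11.9% and 9.53% in Villin-HA + CL4-TCR cells, and 6.13% and 8.95% between the Villin-HA groups. Proliferation genes were higher than in CL4-TCR cells for 11 of 14 in VILLIN-HA/CL4-TCR cells (median log2 difference 2.73, with Mki67, Rrm2 and Top2a at signals of 2197, 1499 and 1183.5 there and 22.8, 39.8 and 57.6 in CL4-TCR cells) and for 13 of 14 in Villin-HA + CL4-TCR cells (3.31), and 1 of 14, Birc5, was lower in VILLIN-HA/CL4-TCR cells than in Villin-HA + CL4-TCR cells (median -0.46). Of 15 measured immediate-early genes, 5 were higher and 1 lower in VILLIN-HA/CL4-TCR cells (median 0.37), and 10 of 18 were higher in Villin-HA + CL4-TCR cells (median 1.503), against CL4-TCR. Between the Villin-HA groups, 1 of 18 of them was higher and 10 lower in VILLIN-HA/CL4-TCR cells (-1.19), where Egr1 was the higher one, with Klf6, Jun and Dusp1 at signals of 103, 22.4 and 187 in VILLIN-HA/CL4-TCR cells and 1471, 450.0 and 2596 in Villin-HA + CL4-TCR cells. Of 11 housekeeping genes, Pgk1 was higher in VILLIN-HA/CL4-TCR cells (median 0.04) and Polr2a lower in Villin-HA + CL4-TCR cells (0.30) than in CL4-TCR cells, and Polr2a was higher in VILLIN-HA/CL4-TCR cells than in Villin-HA + CL4-TCR cells (-0.17). Marker genes above the floor in VILLIN-HA/CL4-TCR cells, Villin-HA + CL4-TCR cells and CL4-TCR cells numbered 0, 0 and 1 of 3 for CD4 T cells, 4, 3 and 4 of 7 for B cells, 2, 5 and 3 of 8 for gut epithelium and 0, 2 and 1 of 3 for erythroid cells.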
